A study of Mus musculus with 16 samples.

Results

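In the seminal vesicle (SV) of 5-week-old mice, 50 of the 31274 genes in the table were expressed in every sample of 3 groups and were much lower in the fourth, the wild-type mice that had received diethylstilbestrol (DES) as newborns. They were chosen by their values. A gene had an FPKM of at least 5 in all 12 samples of the other 3 groups and a mean FPKM in the 4 WT-DES samples of at most 0.1 times the lowest of those 12 values. FPKM is the number of fragments per kilobase of transcript, scaled to the fragments mapped. Of the 9591 genes that reached an FPKM of 5 in all 12 samples, 53 met the ratio, and 3 of these were left out because their symbols start with Svs. The ratio and every comparison that holds WT-DES are therefore given as a description of these 50 genes, with no test.

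The SV is an androgen-dependent gland whose epithelium makes a large part of the seminal fluid. Its cells fold, glycosylate and export a small set of very abundant proteins, which act on sperm or form the copulatory plug. Oestrogen receptor α (ERα), the product of *Esr1*, is a nuclear receptor that DES, a synthetic oestrogen, binds and activates.

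RNA from SVs of male C57BL/6 mice at week 5 was sequenced in 4 groups of 4 samples each. WT-veh mice carried both copies of *Esr1* and received corn oil, and WT-DES mice received DES in corn oil by subcutaneous injection daily from day 1 to day 5 of life, 2 µg for each pup. αERKO-veh and αERKO-DES mice lacked ERα in all tissues, from the breeding of heterozygous animals, and were given corn oil or the same DES. By the study's methods, the WT mice came from pregnant females obtained from a supplier. Genotype and the origin of the mice therefore cannot be told apart where αERKO is compared with WT. In the study's methods RNA was extracted from single animals in 3 groups but from 3 pools of animals in WT-DES, whereas the labels give 4 samples for every group. How the 4 WT-DES samples relate to those 3 pools is not stated, so they may not be independent. The WT-DES samples may therefore each hold several animals, and p-values measure the spread between samples of unlike make-up.

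Sample labels were checked with *Esr1*, whose FPKM was 4.43, 4.55, 3.70 and 2.81 for WT-veh, 8.74, 19.6, 12.99 and 15.7 for WT-DES, 1.30, 1.59, 1.75 and 1.43 for αERKO-veh and 0.91, 1.15, 1.51 and 1.64 for αERKO-DES. All 8 αERKO samples lay under all 8 WT samples, and every WT-DES sample was above every WT-veh sample. The FPKM summed over all genes was 375207 to 437619 in the WT-DES samples and 479045 to 652708 in the other 12. Sequencing depth is unknown, because FPKM holds no fragment counts.

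Of the 50 genes, 46 were protein coding and 2 were lncRNAs in RefSeq (43 matched by symbol and 5 by synonym), and 2, *AK181950* and *LOC100504608*, were not matched. By what their products are known to do, 23 were placed as secreted proteins, 6 as membrane transporters and pumps, 6 as proteins of metabolism (5 enzymes and a regulator of one), 2 as proteins of endoplasmic reticulum (ER) folding, 2 as transcription factors, 7 as other proteins and 4 as noncoding or unplaced transcripts. They lay on 17 chromosomes. A single run of neighbours stood out on chromosome 9 of GRCm38, where *Gm5615*, *Gm17689*, *A630095E13Rik* and *Acrv1* followed each other from 36532403 to 36698845 with 0 other protein-coding RefSeq genes between them. RefSeq names the first 3 of these *Pate9*, *Pate8* and *Pate14*, of a family of small cysteine-rich secreted proteins related to Ly6. *Fcgbp* and *9530053A07Rik* were also neighbours, 8602 bp apart on chromosome 7. In GENCODE, exons of 7 of the 47 genes matched there overlapped exons of another gene, and the overlapped genes with an FPKM in the table above 1 were *Pdia6* (with *Atp6v1c2*), *Zdhhc3* (with *Tgm4*) and *Ube2c* (with *Tnnc2*), all on the opposite strand.

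The upstream sequences of 10 genes are printed. They are the 8 genes with the highest mean over the 12 samples outside WT-DES, all secreted proteins, and *Acrv1* and *Gm5615* of the chromosome 9 run, whose *Gm17689* had no RefSeq window. AGAACA, read on either strand (TGTTCT on the other), is the half-site that steroid receptors of the glucocorticoid receptor class bind, and it is in capitals. Each run is the 250 bases before a RefSeq transcription start on GRCm38.p6, 5′ to 3′ on the strand of the gene, at chr7:24776917-24777166 (plus strand) for *Ceacam10*, chr6:42038144-42038393 (plus strand) for *Sva*, chr9:36638603-36638852 (minus strand) for *A630095E13Rik*, chr10:117238682-117238931 (minus strand) for *9530003J23Rik*, chrX:77853501-77853750 (minus strand) for *Pbsn*, chr9:123034491-123034740 (plus strand) for *Tgm4*, chr7:28129216-28129465 (plus strand) for *9530053A07Rik*, chr4:122689009-122689258 (plus strand) for *9530002B09Rik*, chr9:36692970-36693219 (plus strand) for *Acrv1* and chr9:36541964-36542213 (minus strand) for *Gm5615*.
Ceacam10: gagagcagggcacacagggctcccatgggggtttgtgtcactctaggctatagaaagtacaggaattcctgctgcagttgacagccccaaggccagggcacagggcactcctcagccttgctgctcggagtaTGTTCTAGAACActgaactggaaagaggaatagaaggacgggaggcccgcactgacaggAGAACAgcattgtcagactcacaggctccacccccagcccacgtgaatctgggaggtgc
Sva: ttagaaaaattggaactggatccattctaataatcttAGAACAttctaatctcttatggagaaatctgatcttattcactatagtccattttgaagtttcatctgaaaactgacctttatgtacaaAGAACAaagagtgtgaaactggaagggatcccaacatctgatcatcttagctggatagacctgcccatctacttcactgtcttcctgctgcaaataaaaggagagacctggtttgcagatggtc
A630095E13Rik: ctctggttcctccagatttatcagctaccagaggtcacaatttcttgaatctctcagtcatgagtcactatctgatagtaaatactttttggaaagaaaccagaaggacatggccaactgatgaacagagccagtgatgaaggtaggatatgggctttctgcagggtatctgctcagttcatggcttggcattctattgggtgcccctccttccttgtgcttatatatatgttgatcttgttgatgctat
9530003J23Rik: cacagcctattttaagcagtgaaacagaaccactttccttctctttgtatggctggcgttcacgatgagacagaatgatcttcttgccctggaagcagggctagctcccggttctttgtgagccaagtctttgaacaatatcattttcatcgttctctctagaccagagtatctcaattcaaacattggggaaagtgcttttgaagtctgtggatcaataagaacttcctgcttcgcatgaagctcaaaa
Pbsn: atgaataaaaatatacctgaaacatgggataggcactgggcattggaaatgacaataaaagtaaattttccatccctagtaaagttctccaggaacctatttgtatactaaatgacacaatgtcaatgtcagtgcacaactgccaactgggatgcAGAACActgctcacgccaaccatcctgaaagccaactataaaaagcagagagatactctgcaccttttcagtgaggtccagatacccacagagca
Tgm4: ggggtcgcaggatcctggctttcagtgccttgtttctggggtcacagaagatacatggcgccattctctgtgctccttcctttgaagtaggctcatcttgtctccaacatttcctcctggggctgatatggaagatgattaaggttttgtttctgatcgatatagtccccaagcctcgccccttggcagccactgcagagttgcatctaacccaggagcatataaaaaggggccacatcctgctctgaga
9530053A07Rik: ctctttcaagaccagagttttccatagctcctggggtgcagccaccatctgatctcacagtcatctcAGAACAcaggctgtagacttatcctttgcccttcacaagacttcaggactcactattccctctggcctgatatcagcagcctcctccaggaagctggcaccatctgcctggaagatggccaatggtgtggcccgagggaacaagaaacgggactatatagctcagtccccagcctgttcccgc
9530002B09Rik: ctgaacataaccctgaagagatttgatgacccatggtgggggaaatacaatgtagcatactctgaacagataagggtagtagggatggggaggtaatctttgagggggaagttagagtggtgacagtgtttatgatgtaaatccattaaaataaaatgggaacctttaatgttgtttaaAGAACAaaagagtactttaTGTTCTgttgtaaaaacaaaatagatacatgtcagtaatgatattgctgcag
Acrv1: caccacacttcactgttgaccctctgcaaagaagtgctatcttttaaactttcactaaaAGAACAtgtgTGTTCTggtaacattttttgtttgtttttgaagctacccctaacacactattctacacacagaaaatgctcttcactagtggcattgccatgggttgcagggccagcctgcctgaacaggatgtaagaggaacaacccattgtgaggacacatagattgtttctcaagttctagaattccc
Gm5615: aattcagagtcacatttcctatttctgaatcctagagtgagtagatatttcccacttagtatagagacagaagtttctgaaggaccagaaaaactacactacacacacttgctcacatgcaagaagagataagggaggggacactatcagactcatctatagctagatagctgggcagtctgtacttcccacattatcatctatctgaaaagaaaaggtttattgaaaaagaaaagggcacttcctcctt

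In *Ceacam10* a TGTTCT at position −118 from the start directly abutted an AGAACA at −112, with another AGAACA at −59. *Sva* held AGAACA at −213 and −124, *9530002B09Rik* at −71 with TGTTCT at −52, *Acrv1* at −191 with TGTTCT at −181, *9530053A07Rik* at −183 and *Pbsn* at −95. The windows of *A630095E13Rik*, *9530003J23Rik*, *Tgm4* and *Gm5615* held no match. RefSeq windows of 300 bases (250 before and 50 after the start) were given for 36 of the 50 genes, and 11 of these (30.6%) held AGAACA on either strand, against 21.3% of the 27025 genes with such a window. The inverted repeat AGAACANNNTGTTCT was in 0 of the 36 and in 3 of the 27025. GGTCANNNTGACC, the core of an oestrogen response element, was in 0 of the 36 and in 20 of the 27025. TATAAA from 40 to 15 bases before the start was in 4 of the 36 (11.1%, *Doxl2*, *Orm3*, *Slc26a3* and *Tgm4*) and in 2.41% of all. These matches describe letters and were not tested as binding sites.

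**Figure D1:**
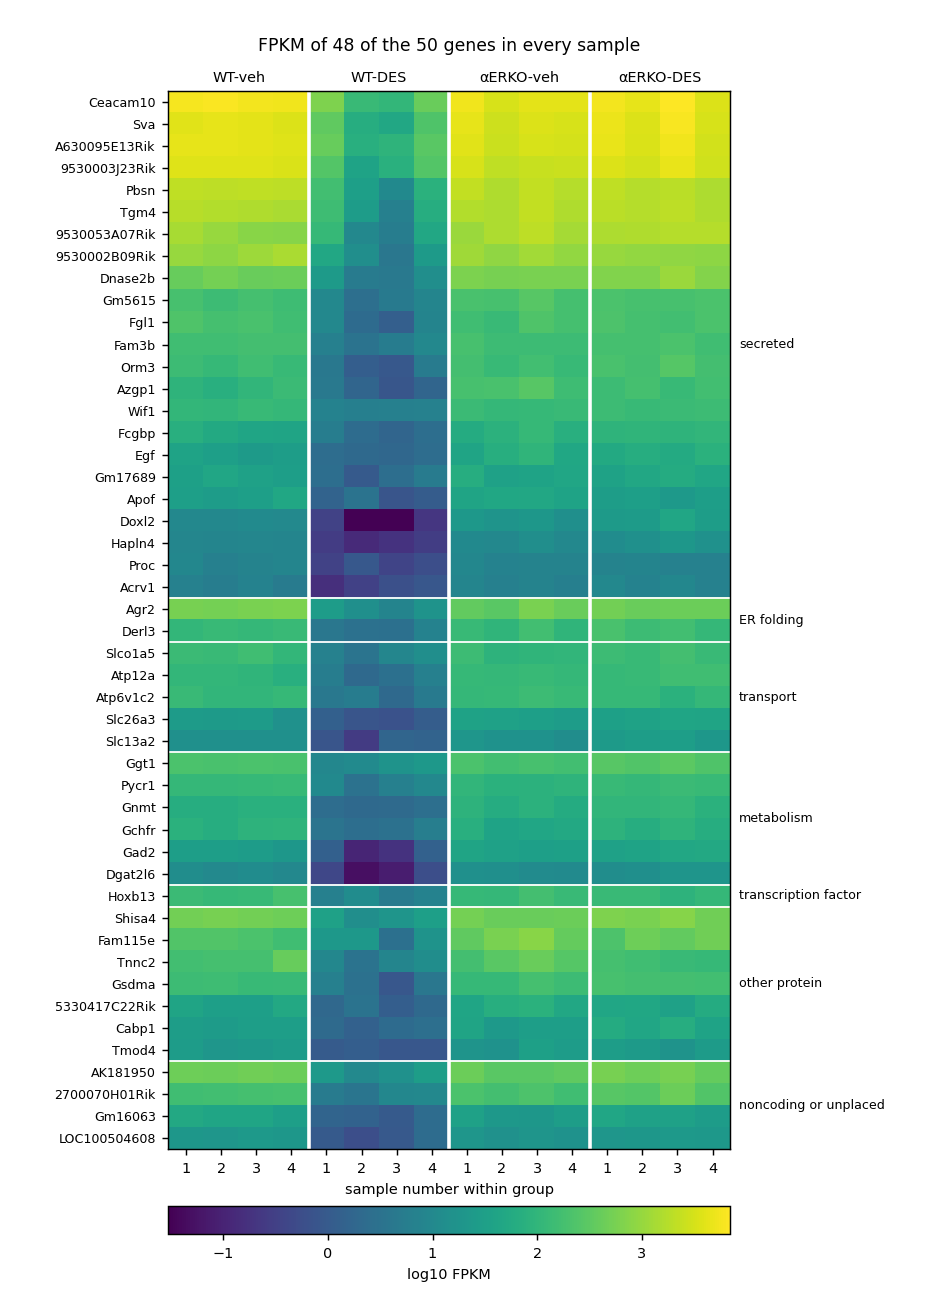
Colour shows log10 FPKM of 48 of the 50 genes (rows, grouped by role and ordered by level) in the 16 samples (columns, by group). The 4 WT-DES columns are darker than the other 12 in every row, as the choice of genes requires, and the WT-DES columns differ among themselves.

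The 50 genes together summed to an FPKM of 27218 to 29911 in the WT-veh samples, 21468 to 28718 in the αERKO-veh samples and 24562 to 36666 in the αERKO-DES samples. In the WT-DES samples the sum was 2407, 568, 512 and 1708. The mean FPKM in WT-DES was under 1 for 8 of the 50 genes, at least 10 for 14 and at least 100 for 4 (*Ceacam10*, *A630095E13Rik*, *Sva* and *9530003J23Rik*), so the most abundant genes were reduced but not silent. As a share of all FPKM, the sum was 4.17% to 5.95% in the 12 samples outside WT-DES and 0.117% to 0.561% in WT-DES. No gene was at 0 in any sample, so transcripts of all 50 were still detected in WT-DES. In these bulk samples, fewer cells of a type and less RNA per cell cannot be told apart.

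The mean FPKM in WT-veh was 12.8 to 66.4 times that in WT-DES, with a median of 23.3. The WT-DES mean was 1.57% to 9.83% of the lowest of the 12 other values. Just inside the limit were *Pycr1* (9.54%), *Ceacam10* (9.80%) and *Fam115e* (9.83%), and just outside were *Spink11* (10.02%), *Arhgap8* (10.1%) and *Fut2* (10.3%). Across the 9584 genes with an FPKM of at least 5 in the 12 samples and no Svs symbol, the median of this ratio was 102.1%, and 119 genes were at 20% or less. The highest WT-DES sample, and not only the mean, was at most 0.1 times the lowest of the 12 for 24 of the 50 genes. When samples were rescaled to equal totals over all but the 20 most abundant genes, 35 of the 50 met the ratio, and no other gene did.

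The secreted proteins held the highest levels. *Ceacam10*, a secreted member of the carcinoembryonic antigen family made in the SV, had an FPKM of 5900.0, 6399.8, 5735 and 5219 for WT-veh, 651, 129.7, 106 and 419 for WT-DES, 5303, 3330.5, 4261 and 4201 for αERKO-veh and 5634, 4417, 6962 and 3671 for αERKO-DES. *Sva*, seminal vesicle antigen, a sperm-binding glycoprotein, had 3931, 4330.2, 4222 and 3650.5 for WT-veh, 335, 66.96, 48.9 and 229 for WT-DES, 4388, 2733, 3655 and 3223 for αERKO-veh and 4829.8, 3605, 6197 and 3259 for αERKO-DES. In both genes WT-DES sample 1 was the highest and sample 3 the lowest of the group, and no WT-DES sample overlapped any other sample.

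*A630095E13Rik*, the Ly6-like PATE protein of the chromosome 9 run, had an FPKM of 4341, 4449.6, 4293 and 3815 for WT-veh, 399.8, 73.7, 91.2 and 290.0 for WT-DES, 3917, 2561, 3336 and 3174 for αERKO-veh and 4530.1, 3429, 5328 and 2956 for αERKO-DES. *9530003J23Rik*, listed in RefSeq with the synonym *Lyzf1*, had 3751, 3878, 3876 and 3466 for WT-veh, 249, 39.4, 75.2 and 255 for WT-DES, 3365, 2122, 2514 and 2564 for αERKO-veh and 3705, 2993, 4514 and 2873 for αERKO-DES. These values put both near *Sva*, with WT-veh means of 4225 and 3743, and in WT-DES both were several times higher in samples 1 and 4 than in samples 2 and 3.

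*Pbsn*, probasin, a lipocalin that is the best-known androgen-induced product of the rodent prostate, had an FPKM of 2179, 2060.5, 2161 and 2009.9 for WT-veh, 166, 31.9, 10.6 and 80.01 for WT-DES, 2188, 1612, 2265 and 1796 for αERKO-veh and 2186, 1725, 1963 and 1547 for αERKO-DES. *Tgm4*, the prostate transglutaminase that cross-links seminal proteins in the copulatory plug, had 1856, 1679.6, 1594 and 1453 for WT-veh, 152, 27.4, 6.62 and 66.6 for WT-DES, 1643, 1516, 2256 and 1607 for αERKO-veh and 1958, 1749, 2014 and 1635 for αERKO-DES. *9530002B09Rik* had 1025, 854, 1145 and 1466 for WT-veh, 49.1, 13.3, 4.01 and 25.6 for WT-DES, 1199, 890.0, 1243 and 959 for αERKO-veh and 1049.6, 950.3, 883 and 852 for αERKO-DES. In all 3 genes WT-DES sample 1 was over 10 times sample 3, whereas the other 3 groups overlapped each other.

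*9530053A07Rik*, a neighbour and relative of *Fcgbp*, the Fc fragment of IgG binding protein of mucus, had an FPKM of 1379, 1052, 782 and 741 for WT-veh, 118, 9.76, 5.58 and 49.02 for WT-DES, 1074, 1506, 2041 and 1288 for αERKO-veh and 1550.2, 1615, 1744 and 1736 for αERKO-DES. *Fcgbp* itself ranged from 40.5 to 116 outside WT-DES and 1.69 to 5.76 in WT-DES. How the authors' counting shared reads between these 2 similar genes is not given in the sources used here, so their separate levels are uncertain.

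*Dnase2b*, an acid DNase, had an FPKM of 392, 531, 412 and 444 for WT-veh, 24.8, 5.24, 4.51 and 13.7 for WT-DES, 610.4, 556, 589 and 577 for αERKO-veh and 673, 672, 1060.3 and 706 for αERKO-DES. *Fgl1*, fibrinogen-like 1, had 229, 179, 198 and 157 for WT-veh, 9.46, 2.21, 1.29 and 8.04 for WT-DES, 161, 132, 229 and 179 for αERKO-veh and 222, 183, 163 and 213 for αERKO-DES. *Orm3*, an orosomucoid of the acute-phase plasma proteins, had 143, 116, 160.0 and 126 for WT-veh, 4.24, 1.19, 0.89 and 5.21 for WT-DES, 175, 122, 166 and 121 for αERKO-veh and 204, 171, 267 and 176 for αERKO-DES. WT-DES samples 1 and 4 were above samples 2 and 3 in all 3 genes, and *Dnase2b* was higher in every αERKO sample than in every WT-veh sample.

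*Azgp1*, zinc-α2-glycoprotein, a plasma and seminal protein linked to lipid breakdown, had an FPKM of 94.4, 72.4, 101 and 137 for WT-veh, 4.45, 1.70, 0.81 and 1.69 for WT-DES, 191, 203, 278 and 148 for αERKO-veh and 146, 181, 126 and 165 for αERKO-DES. *Doxl2*, a diamine oxidase-like gene, had 9.70, 9.73, 10.9 and 10.2 for WT-veh, 0.34, 0.03, 0.03 and 0.21 for WT-DES, 21.6, 18.03, 21.2 and 14.3 for αERKO-veh and 25.1, 26.5, 44.1 and 29.1 for αERKO-DES. *Hapln4*, a link protein for hyaluronan and proteoglycans, had 8.75, 8.21, 8.81 and 8.13 for WT-veh, 0.27, 0.13, 0.18 and 0.28 for WT-DES, 10.6, 9.77, 13.8 and 9.81 for αERKO-veh and 12.3, 14.95, 20.6 and 15.3 for αERKO-DES. *Doxl2* had the lowest ratio of the 50 genes, 1.57%, and 2 of its 4 WT-DES values were 0.03, at the limit of a table with 2 decimals.

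**Figure D2:**
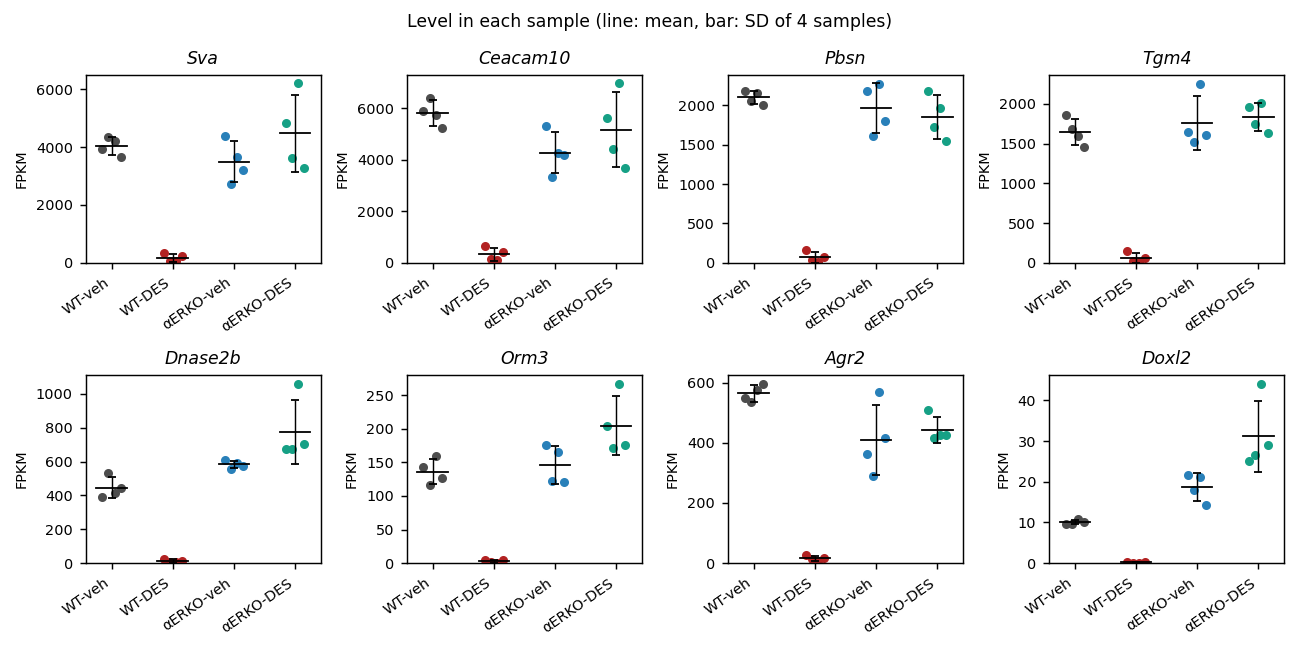
FPKM (vertical axes, from 0) of 8 genes in each sample of the 4 groups, with the mean (line) and SD (bar) of 4 samples. WT-DES is the lowest group in every panel, and *Doxl2* and *Dnase2b* lie higher in both αERKO groups than in WT-veh.

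The other secreted proteins are given by their range. *Gm5615* and *Gm17689*, the PATE genes of chromosome 9, ranged from 145 to 280.1 outside WT-DES and 2.80 to 9.44 in WT-DES, and from 30.1 to 65.1 outside WT-DES and 1.01 to 5.04 in WT-DES, respectively. *Acrv1*, which codes for an acrosomal protein of sperm, had the lowest WT-veh mean of the 50 genes (6.25) and ranged from 5.20 to 9.54 outside WT-DES and 0.16 to 0.86 in WT-DES. *Wif1*, a secreted inhibitor of Wnt ligands, ranged from 104 to 142 outside WT-DES and 6.12 to 7.15 in WT-DES, and so varied little within WT-DES. *Egf*, epidermal growth factor, ranged from 25.4 to 96.9 outside WT-DES and 1.90 to 2.51 in WT-DES. *Fam3b*, a cytokine-like protein, ranged from 140.1 to 206 outside WT-DES and 3.32 to 9.56 in WT-DES. *Apof*, apolipoprotein F, ranged from 23.3 to 49.0 outside WT-DES and 0.79 to 3.25 in WT-DES, and *Proc*, the anticoagulant protein C, from 6.38 to 9.35 outside WT-DES and 0.34 to 0.91 in WT-DES. These 8 genes come from several families, and their FPKM outside WT-DES covered 5.2 to 280.1.

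Both genes of ER folding work on secreted proteins. *Agr2*, a protein disulphide isomerase of mucus-producing cells, had an FPKM of 549.7, 534, 576 and 596 for WT-veh, 27.97, 14.1, 8.04 and 16.97 for WT-DES, 364, 289, 568 and 416 for αERKO-veh and 509, 415, 426 and 424 for αERKO-DES. *Derl3*, a part of the machinery that returns misfolded proteins from the ER for degradation, ranged from 96.6 to 198 outside WT-DES and 2.91 to 7.14 in WT-DES. In both, WT-DES sample 3 was the lowest of the group.

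Among the transporters and pumps, *Slc26a3* exchanges chloride for bicarbonate and ranged from 15.4 to 43.02 outside WT-DES and 0.67 to 1.35 in WT-DES. *Atp12a*, a proton-potassium ATPase, ranged from 71.9 to 155 outside WT-DES and 2.05 to 6.46 in WT-DES, and *Atp6v1c2*, a subunit of the proton-pumping V-ATPase, from 79.8 to 145 outside WT-DES and 2.01 to 5.33 in WT-DES. Exons of *Atp6v1c2* overlap those of *Pdia6* on the opposite strand, and *Pdia6* averaged 519 FPKM in WT-veh and 109 in WT-DES, so without stated strandedness reads of the overlap cannot be told apart. *Slc13a2*, a sodium-dependent carrier of dicarboxylates and citrate, ranged from 13.1 to 29.8 outside WT-DES and 0.26 to 1.68 in WT-DES. *Slco1a5*, an organic anion carrier, ranged from 89.2 to 169.8 outside WT-DES and 3.55 to 13.3 in WT-DES. These 5 genes move protons, bicarbonate, citrate and organic anions, and their WT-veh means were 14.7 to 134.8.

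Among the proteins of metabolism, *Gad2*, the glutamate decarboxylase that makes GABA, had an FPKM of 30.3, 31.3, 28.3 and 21.2 for WT-veh, 1.31, 0.11, 0.18 and 1.36 for WT-DES, 41.5, 35.4, 31.5 and 34.3 for αERKO-veh and 35.6, 39.1, 49.2 and 51.8 for αERKO-DES. *Gnmt*, glycine N-methyltransferase, which consumes S-adenosylmethionine, had 66.1, 66.7, 75.9 and 75.4 for WT-veh, 2.48, 2.05, 2.20 and 2.70 for WT-DES, 86.6, 62.4, 85.9 and 61.4 for αERKO-veh and 102, 100.4, 113 and 81.2 for αERKO-DES. *Dgat2l6*, of the diacylglycerol acyltransferase family, had 12.9, 10.3, 12.2 and 9.75 for WT-veh, 0.42, 0.05, 0.08 and 0.57 for WT-DES, 14.7, 14.01, 11.7 and 10.8 for αERKO-veh and 12.9, 14.04, 18.5 and 18.5 for αERKO-DES. In *Gad2* and *Dgat2l6* WT-DES samples 1 and 4 were well above samples 2 and 3, whereas the 4 WT-DES values of *Gnmt* lay within 2.05 to 2.70. *Ggt1*, the γ-glutamyltransferase of glutathione turnover, ranged from 165 to 306 outside WT-DES and 9.16 to 21.8 in WT-DES. *Pycr1*, the last enzyme of proline synthesis, ranged from 78.7 to 133 outside WT-DES and 3.19 to 10.6 in WT-DES, and *Gchfr*, the feedback regulator of GTP cyclohydrolase, from 39.4 to 94.6 outside WT-DES and 2.63 to 5.80 in WT-DES. These 6 proteins act in amino acid, methyl group, lipid and pterin metabolism, and do not form 1 pathway.

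Among the transcription factors, *Hoxb13*, a posterior Hox gene expressed in prostate, ranged from 88.9 to 194 outside WT-DES and 5.24 to 12.5 in WT-DES. It was highest in WT-DES sample 2, in contrast to *Sva*, *Ceacam10*, *Pbsn* and *Tgm4*, which were highest in sample 1.

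*Gsdma*, a gasdermin of the pore-forming family, had an FPKM of 144, 149.5, 126 and 129.6 for WT-veh, 6.63, 3.04, 0.87 and 4.06 for WT-DES, 119, 119, 184 and 143 for αERKO-veh and 191, 169, 173 and 167 for αERKO-DES. *Shisa4*, a transmembrane protein of the Shisa family, had 509, 544, 492 and 455 for WT-veh, 34.7, 13.6, 19.2 and 31.4 for WT-DES, 519, 406, 404 and 428 for αERKO-veh and 645, 578, 729 and 484 for αERKO-DES. *AK181950*, a transcript with no gene name in the table, had 466, 445, 472 and 433 for WT-veh, 23.97, 10.1, 15.7 and 28.6 for WT-DES, 439, 295, 295 and 335 for αERKO-veh and 559.6, 449, 556 and 367 for αERKO-DES. *Shisa4* and *AK181950* had WT-DES means of 24.7 and 19.6, and *Gsdma* of 3.65. *Fam115e*, listed in RefSeq as *Tcaf3*, of a family of TRPM8 channel-associated factors, ranged from 160.1 to 776 outside WT-DES and 2.87 to 21.9 in WT-DES. *5330417C22Rik*, listed in RefSeq as *Elapor1*, a transmembrane protein of endosomes and lysosomes, ranged from 32.1 to 81.2 outside WT-DES and 1.21 to 3.26 in WT-DES, and *Cabp1*, a calcium-binding protein of the calmodulin superfamily, from 24.01 to 65.3 outside WT-DES and 1.38 to 2.71 in WT-DES. The lncRNAs *2700070H01Rik* and *Gm16063* ranged from 154 to 427 outside WT-DES and 3.63 to 9.74 in WT-DES, and from 20.7 to 51.4 outside WT-DES and 1.01 to 2.33 in WT-DES, respectively. *LOC100504608* ranged from 15.7 to 23.6 outside WT-DES and 0.57 to 2.39 in WT-DES. These 9 genes were thus at 15.7 FPKM or more in each of the 12 samples outside WT-DES.

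*Tnnc2*, troponin C of fast skeletal muscle, and *Tmod4*, a tropomodulin of skeletal muscle, carry names of another tissue. *Tnnc2* had an FPKM of 163, 178, 182 and 390.2 for WT-veh, 9.34, 3.37, 8.12 and 12.7 for WT-DES, 172, 292, 404 and 273 for αERKO-veh and 179, 157, 129 and 117 for αERKO-DES, and *Tmod4* ranged from 15.95 to 33.99 outside WT-DES and 0.86 to 1.2 in WT-DES. The other 13 skeletal muscle markers summed to 599 to 2055 in WT-veh, 637 to 2589 in αERKO-veh, 490 to 702 in αERKO-DES and 52.4 to 359.6 in WT-DES. In WT-DES against WT-veh, 3 of these 13 (23.1%) were called lower and 10 were not called, beside 23.9% called lower of all genes tested. *Acta1*, the actin of skeletal muscle, averaged 574 FPKM for WT-veh, 536 for αERKO-veh, 551 for αERKO-DES and 88.0 for WT-DES. The 12 markers other than *Acta1* summed to 61.6 to 1350.01 in WT-veh, 166 to 1964 in αERKO-veh, 34.0 to 66.2 in αERKO-DES and 27.5 to 125 in WT-DES, and so overlapped between αERKO-DES and WT-DES. WT-veh sample 4, with the highest *Tnnc2* of its group, also had the highest sum of the other 13 muscle markers in its group, 2055. The part of skeletal muscle in the levels of *Tnnc2* and *Tmod4* was not tested.

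The 4 WT-DES samples did not hold the 50 genes at 1 level. As a percentage of the WT-veh mean, the median over the 50 genes was 4.95% in sample 1, 2.54% in sample 2, 2.89% in sample 3 and 5.57% in sample 4. Sample 1 was the highest of the 4 for 20 genes, sample 4 for 21, sample 2 for 8 and sample 3 for 1. Sample 3 was the lowest for 25 and sample 2 for 22. The highest WT-DES sample was at least 10 times the lowest for 7 genes and within 3 times for 20. Of the 23 secreted genes, 14 were highest in sample 1, whereas 5 of the 6 genes of metabolism were highest in sample 4. These counts describe 4 samples, and the genes within a sample share its RNA. Markers of other cells also differed between the WT-DES samples. The mean log2(FPKM + 1) of the leukocyte markers was 4.52 in sample 1 and 4.53 in sample 4, against 5.45 in sample 2 and 5.28 in sample 3. Smooth muscle markers summed to an FPKM of 4444 in sample 1 and 1026, 1354 and 1596 in samples 2, 3 and 4, and epithelial markers to 1984, 1535, 1316 and 1567 in samples 1 to 4. The part of these differences in the levels of the 50 genes was not tested.

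**Figure D3:**
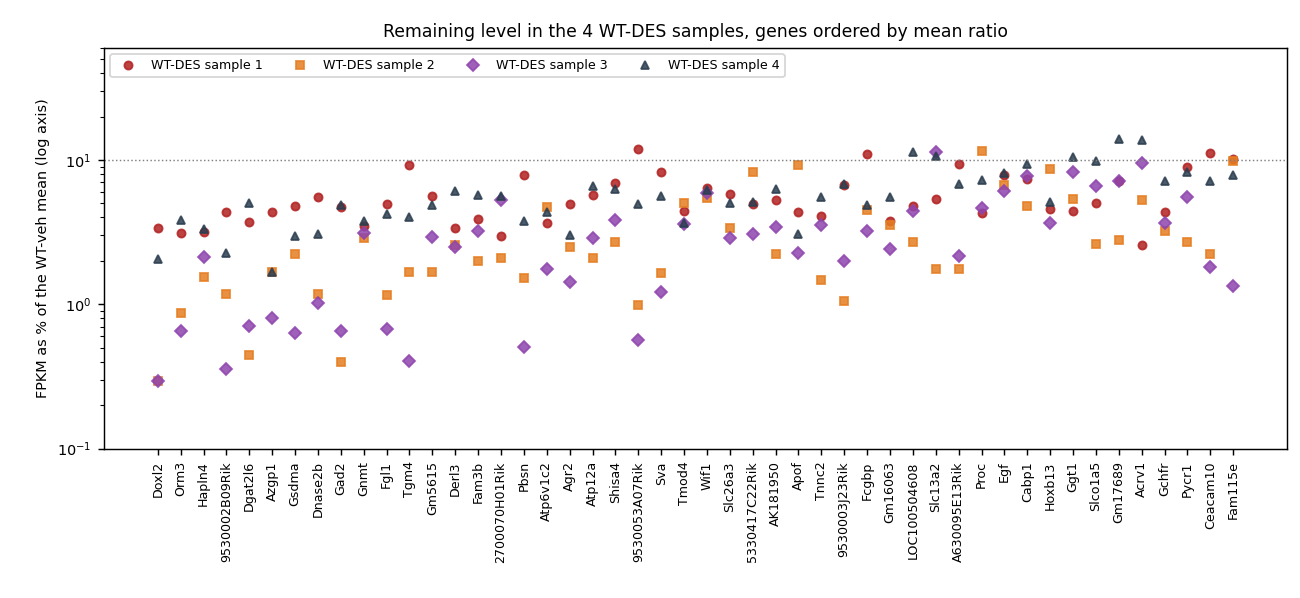
FPKM of 48 of the 50 genes in each of the 4 WT-DES samples as a percentage of the WT-veh mean (vertical log axis), with genes ordered by the ratio that chose them. Most points lie under the dotted line at 10%, samples 2 and 3 (squares and diamonds) reach below 1% for several secreted genes, and *Wif1* and *Gnmt* hold all 4 samples together.

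The other 3 groups were compared with each other in 3 contrasts. They were tested with limma on log2(FPKM + 1) over 15988 genes, and genes were called where the Benjamini-Hochberg adjusted p did not exceed 0.05, the group means differed by 1.5-fold or more and the higher mean was above 1 FPKM. The 3 comparisons share samples in pairs, so they are not independent of each other. All 16 samples entered the model, so the spread within WT-DES is part of the SE in each contrast. With only the 2 groups compared in the model, 6, 0 and 11 of the 50 genes were called in the 3 contrasts, in the order below, in place of 5, 1 and 7. The choice of the 50 genes read these 12 samples too. It asked for an FPKM of at least 5 in each and divided by the lowest of them, which favours genes with no low value in any of the 3 groups, so the tests are not independent of it.

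In αERKO-veh against WT-veh, 5 of the 50 genes (10%) were called, 3 higher and 2 lower, against 7.12% of all genes tested (4.5% higher and 2.63% lower). *Doxl2* rose, with a log2 change of 0.81 (SE 0.16, limma adjusted p = 0.00696), and all 4 αERKO-veh samples were above all WT-veh samples. *Egf*, with an FPKM of 38.1, 31.8, 25.4 and 28.8 for WT-veh, 2.43, 2.08, 1.90 and 2.51 for WT-DES, 40.8, 68.8, 96.9 and 48.1 for αERKO-veh and 54.1, 66.1, 56.7 and 81.1 for αERKO-DES, rose by 0.95 (SE 0.22, adjusted p = 0.00983). *Azgp1* rose by 1.01 (SE 0.28, adjusted p = 0.0197). *Gm16063*, with an FPKM of 51.4, 41.96, 42.2 and 31.7 for WT-veh, 1.59, 1.48, 1.01 and 2.33 for WT-DES, 34.6, 21.6, 20.7 and 29.2 for αERKO-veh and 45.3, 36.1, 34.5 and 28.02 for αERKO-DES, had a log2 change of −0.65 (SE 0.20, adjusted p = 0.0265), and 1 αERKO-veh sample was above the lowest WT-veh sample. *Gchfr*, with 81.5, 64.96, 87.01 and 91.4 for WT-veh, 3.54, 2.63, 2.99 and 5.80 for WT-DES, 73.6, 39.4, 45.5 and 51.1 for αERKO-veh and 87.3, 66.1, 94.6 and 67.3 for αERKO-DES, had −0.65 (SE 0.21, adjusted p = 0.034), and the groups overlapped in 1 sample. The median log2 change of the 50 genes was 0.08, against −0.02 over all genes tested. Both calls of lower level depended on the scaling. The split was 4 higher and 0 lower after quantile normalization, 7 and 0 after rescaling to equal totals, and 3 and 0 after a correction for transcript length, in which 47 of the 50 were tested. Over 15051 genes the log2 change of this comparison followed transcript length (Spearman rho 0.552, a description, since genes share the same libraries). The count was 3 without WT-veh sample 3, and 2 without αERKO-veh sample 2 or sample 3. Over all genes 1139 were called, and 418 without αERKO-veh sample 2, 715 without WT-veh sample 3 and 1691 without αERKO-veh sample 1. *Azgp1* was not called without αERKO-veh sample 2 or sample 3, and *Doxl2* was not called with a pseudocount of 0.1 (adjusted p = 0.0617).

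In αERKO-DES against αERKO-veh, 1 of the 50 genes (2%) was called, against 1.49% of all genes tested (0.0876% higher and 1.41% lower). It was *Doxl2*, which rose by 0.69 (SE 0.16, limma adjusted p = 0.0417), with no overlap between the groups. The call was kept under 8 of 18 alternatives, where the adjusted p ran from 0.0215 to 0.179, and it was not made without αERKO-veh sample 2 or sample 4 or without αERKO-DES sample 1, 2 or 3, which left 0 genes called. Without αERKO-veh sample 1 the count was 4, and it was 2 without αERKO-veh sample 3 or αERKO-DES sample 4. The background moved more. Over all genes 239 were called, but 1 to 3 without αERKO-veh sample 2 or 4 or without αERKO-DES sample 1, 2 or 3, 653 without αERKO-veh sample 1, 28 with only the 2 groups in the model and 5 after quantile normalization. At an unadjusted p under 0.05 there were 11 of the 50 genes, against 25.3% of all genes tested. The median log2 change of the 50 genes was 0.25, against 0.02 over all genes, and 37 of the 50 were above 0. Over 15051 genes the log2 change of this comparison fell with transcript length (Spearman rho −0.32, a description). The 47 of the 50 genes with a length had a median of 2294 bases, against 3244 over all genes tested with a length. The part of length in the shift of the 50 genes was not tested. The other 49 genes were not called, which does not show that DES left them at the same level in mice without ERα.

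In αERKO-DES against WT-veh, 7 of the 50 genes (14%) were called, all higher, against 3.18% of all genes tested (1.21% higher and 1.97% lower). *Doxl2* rose by 1.499 (SE 0.16, limma adjusted p = 0.00039), from a mean FPKM of 10.1 ± 0.57 (SD, n = 4) to 31.2 ± 8.74 (SD, n = 4). *Hapln4* rose by 0.80 (SE 0.13, adjusted p = 0.00356) and *Egf* by 1.03 (SE 0.22, adjusted p = 0.0127). *Slc26a3*, with an FPKM of 26.2, 25.4, 26.5 and 15.4 for WT-veh, 1.35, 0.79, 0.67 and 1.17 for WT-DES, 36.8, 35.8, 32.4 and 27.9 for αERKO-veh and 32.9, 37.04, 43.02 and 41.7 for αERKO-DES, rose by 0.73 (SE 0.16, adjusted p = 0.0172). *Cabp1*, with 28.8, 26.6, 29.9 and 30.4 for WT-veh, 2.14, 1.38, 2.24 and 2.71 for WT-DES, 41.8, 24.01, 29.9 and 29.9 for αERKO-veh and 58.97, 43.9, 65.3 and 38.8 for αERKO-DES, rose by 0.79 (SE 0.18, adjusted p = 0.0185). *Slc13a2*, with 14.97, 14.7, 14.6 and 14.6 for WT-veh, 0.79, 0.26, 1.68 and 1.56 for WT-DES, 19.7, 16.1, 15.9 and 13.1 for αERKO-veh and 24.7, 28.6, 29.8 and 21.2 for αERKO-DES, rose by 0.77 (SE 0.20, adjusted p = 0.0288). The remaining call was *Fcgbp*, at 0.90 (SE 0.26, adjusted p = 0.0463). In these 7 genes every αERKO-DES sample was above every WT-veh sample. The 7 products are a diamine oxidase-like protein, a matrix link protein, a growth factor, an anion exchanger, a calcium-binding protein, a citrate carrier and a mucus protein. The count was 11 when only the 2 groups entered the model, 4 without WT-veh sample 4 or αERKO-DES sample 4, and 3 without αERKO-DES sample 3. *Slc13a2* was not called under 6 of 18 alternatives (adjusted p from 0.00483 to 0.156), among them leaving out WT-veh sample 1, 3 or 4 or αERKO-DES sample 2 or 3. *Slc26a3* was not called without WT-veh sample 4 or αERKO-DES sample 3 or 4 (adjusted p from 0.0128 to 0.0649 over the 18), *Cabp1* without αERKO-DES sample 3, and *Egf* without αERKO-DES sample 4. Over all genes 508 were called, 199 to 883 with 1 sample left out, the lowest without αERKO-DES sample 3 and the highest without αERKO-DES sample 1. The median log2 change of the 50 genes was 0.26, against −0.03 over all genes. Here the log2 change rose with transcript length (Spearman rho 0.399 over 15051 genes, a description).

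**Figure D4:**
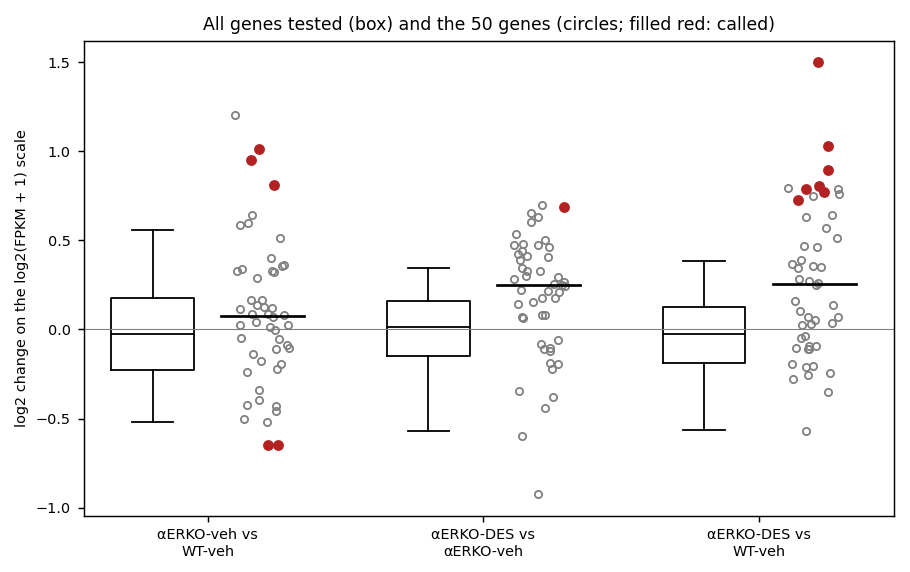
Log2 change (vertical axis, log2(FPKM + 1) scale) in the 3 comparisons between the groups other than WT-DES. Boxes show all 15988 genes tested (median, quartiles, whiskers to the 5th and 95th percentiles), circles the 50 genes, filled red where called, and thick lines their median, at 0.08, 0.25 and 0.26 from left to right.

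Genes with related functions were described next in WT-DES against WT-veh, leaving out the 50 genes themselves, which were all called lower there because of how they were chosen. Of all genes tested, 52.7% were called, 28.9% higher and 23.9% lower. Of 17 other secretory genes of the SV and prostate that were tested, 12 were lower, 1 was higher and 4 were not called, with a median log2 change of −3.32 against −0.01 over all genes. *Msmb*, a microseminoprotein, fell by 5.25 on the log2 scale (SE 0.86, limma adjusted p = 6.18e-05), *Ren2*, a renin, fell by 5.19 (SE 0.62, adjusted p = 2.93e-06), and *Spink3*, a secreted protease inhibitor, fell by 4.53 (SE 0.41, adjusted p = 1.79e-07). Their mean FPKM fell from 863 to 20.1, from 106 to 2.57 and from 3112 to 168. Without WT-veh sample 2, the lowest of its group, *Msmb* fell by 6.12 (limma adjusted p = 6.04e-06).

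Of 28 other androgen-responsive genes, 11 were lower, 5 higher and 12 not called, with a median log2 change of −0.30. *Spdef*, an ETS factor of secretory epithelia, fell by 3.17 (SE 0.26, limma adjusted p = 5.71e-08), *Sord*, the sorbitol dehydrogenase that makes fructose, fell by 2.17 (SE 0.21, adjusted p = 3.64e-07), and *Ell2*, an elongation factor, fell by 2.13 (SE 0.22, adjusted p = 5.62e-07). *Ndrg1* rose by 1.76 (SE 0.13, adjusted p = 2.89e-08), and *Abcc4*, a drug and nucleotide exporter, rose by 1.35 (SE 0.22, adjusted p = 5.65e-05). These shares, 17.9% higher and 39.3% lower, stand beside 28.9% and 23.9% of all genes tested. After rescaling to equal totals the list gave 9 lower and 7 higher.

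Of 56 other genes of ER folding and export, 53 were lower, 1 was higher and 2 were not called, with a median log2 change of −1.65. *Fkbp11*, a prolyl isomerase of the ER, fell by 3.85 (SE 0.21, limma adjusted p = 1.41e-09), *Sdf2l1* fell by 3.40 (SE 0.19, adjusted p = 2.10e-09), and *Creld2* fell by 2.84 (SE 0.27, adjusted p = 2.43e-07). The last 2 belong to the genes induced when unfolded protein builds up in the ER. The number lower was 46 after quantile normalization and 49 after rescaling to equal totals. None of these 3 genes reached the ratio that *Agr2* and *Derl3* met, and their WT-DES means were 17.96, 24.96 and 29.3 FPKM.

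Of 32 glycosyltransferases of secreted proteins, 10 were lower, 12 higher and 10 not called, with a median log2 change of 0.21. *Abo*, the blood group transferase, had an FPKM of 6.35, 4.13, 22.5 and 72.1 for WT-veh, 0.32, 0.27, 0.21 and 0.44 for WT-DES, 35.4, 35.1, 29.2 and 19.5 for αERKO-veh and 10.6, 14.3, 13.9 and 9.60 for αERKO-DES. It fell by 3.61 (SE 0.58, limma adjusted p = 4.81e-05), and by 2.88 without WT-veh sample 4, the highest of its group (adjusted p = 1.35e-05). *Fut2*, the secretor fucosyltransferase, fell by 3.17 (SE 0.07, adjusted p = 4.77e-13), and *B3gnt7* fell by 2.90 (SE 0.16, adjusted p = 1.58e-09). *Galnt6*, which starts mucin-type chains, rose by 2.22 (SE 0.24, adjusted p = 1.196e-06), and *Mgat5*, which branches N-glycans, rose by 2.02 (SE 0.23, adjusted p = 1.38e-06). After rescaling to equal totals, 10 were lower and 19 higher. These shares, 37.5% higher and 31.3% lower, stand beside 28.9% and 23.9% of all genes tested.

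**Figure D5:**
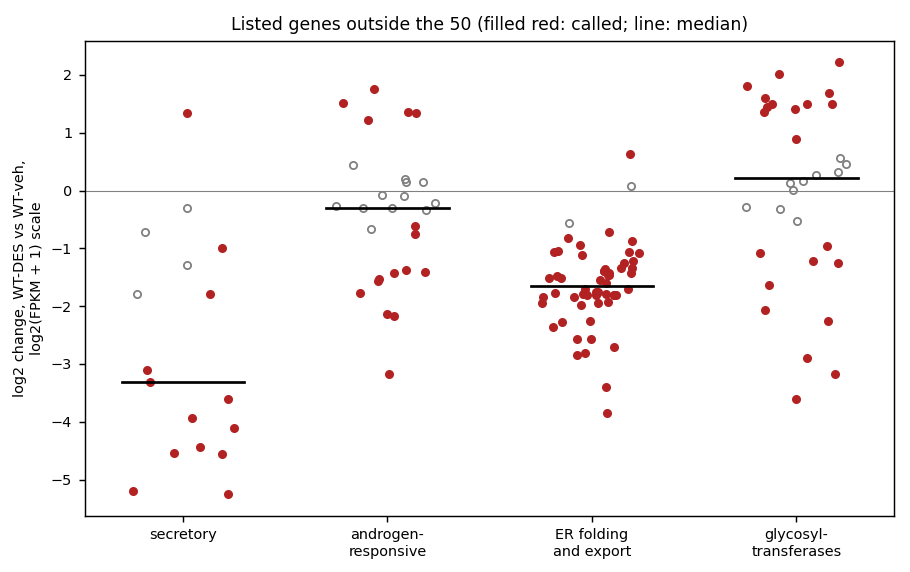
Log2 change in WT-DES against WT-veh (vertical axis, log2(FPKM + 1) scale) of the tested genes of 4 lists, without the 50 genes. Filled red circles were called, and the lines are medians, at −3.32, −0.30, −1.65 and 0.21 from left to right.

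Markers of the cell types in the tissue were read in the same comparison, where 28.9% of all genes tested were called higher and 23.9% lower. Of 14 epithelial markers, 7 were lower and 3 higher, and their summed FPKM lay between 2244 and 2529 in WT-veh and between 1316 and 1984 in WT-DES. Of 10 smooth muscle markers, 5 were lower, with sums of 3502 to 4344 and 1026 to 4444. Fibroblast markers were higher for 7 of 8, with sums of 834 to 987 and 2236 to 2460, and adipose markers for 6 of 10, with sums of 272 to 1356 and 1115 to 2640. Of 12 leukocyte markers, 11 were higher and 1 lower. The exception was *Cd52*, which averaged 2919 FPKM in WT-veh and 452 in WT-DES and dominated the sum of its list (2915 to 3107 and 704 to 1130). The part of these changes in the low level of the 50 genes was not tested. In αERKO-DES the fibroblast and adipose sums were 552 to 671 and 26.5 to 81.5, under every WT-veh sample. In αERKO-veh they were 658 to 1061 and 157 to 1433. The epithelial, smooth muscle and leukocyte sums of αERKO-DES overlapped those of WT-veh. The part of these markers in the comparisons between the groups other than WT-DES was not tested.

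Of 8 anterior prostate markers, 5 were among the 50 genes, with *Pbsn*, *Tgm4*, *Hoxb13* and *9530002B09Rik* among these 5. The anterior prostate adjoins the SV, and by the study's methods it was separated from the SV at dissection. Of the other 3 markers, *Sbp* and *Msmb* were called lower in WT-DES against WT-veh and *Hoxd13* was not called, with a median log2 change of −4.55. Of all genes tested, 23.9% were called lower there. *Sbp*, a prostate secretory protein, had an FPKM of 58.8, 2.59, 2057 and 4368 for WT-veh, 17.6, 5.38, 2.47 and 14.4 for WT-DES, 490.0, 85.9, 43.2 and 457 for αERKO-veh and 4.92, 6.90, 4.33 and 4.46 for αERKO-DES. *Msmb* had 689, 94.8, 1082 and 1586 for WT-veh, 41.9, 10.3, 3.31 and 24.8 for WT-DES, 1509, 954, 766 and 855 for αERKO-veh and 93.8, 249, 46.6 and 29.1 for αERKO-DES. In αERKO-DES *Sbp* was at 4.33 to 6.90 and *Pbsn* at 1547 to 2186. *Hoxd13* averaged 22.1 FPKM in WT-veh and 23.1 in WT-DES. The share of prostate tissue in the samples was not tested.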

How the data were processed

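RNA-seq of 16 SV samples in 4 groups was analysed from 1 deposited table of 31274 genes. The authors deposited FPKM per gene, after a quality filter on paired-end HiSeq reads, alignment to mm10 (GRCm38) by TopHat2 version 2.0.4 and assembly by Cufflinks version 2.0.2 (versions per the submitters' processing notes). The gene annotation of the table and any further scaling between samples are not given in the sources used here. FPKM holds no fragment counts, so depth is unknown, no counting interval is given, and precision rests on 4 samples per group.

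From these values, log2(FPKM + 1) was fitted in R 4.3.3 with limma 3.58.1 in a model with a mean per group over all 16 samples, with eBayes and a variance trend. P-values were adjusted by Benjamini-Hochberg over the 15988 genes tested, whose mean FPKM exceeded 1 in some group. A fold change on this scale understates the change of low genes. The study's 1.5-fold threshold was kept, and limma took the place of its own test. Means ± SD are over 4 samples. The 50 genes, the gene lists and the alternatives were chosen with earlier results of these data known.

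Values in every sample were printed for the 12 genes with the lowest ratio and the 12 with the highest mean over the 12 samples outside WT-DES (21 genes). Statistics were given for up to 6 called genes with the lowest adjusted p in each comparison between the groups other than WT-DES, and, of each list, for the 3 largest falls and 2 largest rises among called genes with no overlap between groups and a mean FPKM of at least 5 in 1 group. Other genes were named with their range, and values of *Fcgbp*, *Tnnc2*, *Sbp*, *Cd52* and *Acta1* beyond this rule were added after they were seen. The results of some genes are not reported here, 2 of the 50 among them, although they stay in the counts and medians. The lists share genes with each other and with the 50 genes. Coordinates and upstream sequences came from RefSeq on GRCm38.p6, and exon overlaps and transcript lengths from GENCODE. The scripts were tested on simulated data. Other steps used Python 3.11.15 (pandas 2.3.3, numpy 2.4.6) with figures by matplotlib 3.10.9.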

Additional observations from a re-analysis of the deposited data

Results flagged for a closer look

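Single samples that stood apart within their group of 4 by Dixon's test, at its 95% critical value, were looked for in the 50 genes and in their sum, over 204 groups, of which 6 passed. Chance passes about 1 in 20, so 6 is no more than chance gives. The FPKM of *Tnnc2* was 390 in WT-veh sample 4 and 162.7 to 181.8 in the other 3. That sample also had the highest sum of the other 13 skeletal muscle markers in its group. *Slc26a3* was at 15.4 in WT-veh sample 4 and at 25.4 to 26.4 in the others, which bears on its call in αERKO-DES against WT-veh, reported above. In αERKO-DES, *Dnase2b* was at 1060.2 in sample 3 and at 672 to 706 in the others, *Atp6v1c2* was at 79.8 in sample 3 and at 114 to 119 in the others, and *Agr2* was at 509 in sample 1 and at 415 to 426 in the others. *Fam3b* was at 192 in αERKO-veh sample 1 and at 140.1 to 146 in the others.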

How the results depend on the processing

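The number of genes meeting the rule was 63 with an FPKM of at least 2 in the 12 samples, 45 with at least 10, 119 with a ratio of at most 0.2, 17 with at most 0.05, 83 with the mean of the 12 in place of the lowest, 24 with the highest WT-DES value in place of the mean, 70 after quantile normalization (47 of the 50 among them), 51 after median-ratio scaling and 35 after rescaling to equal totals. It was 43 to 62 when each sample was left out in turn. These settings make the rule looser or stricter, or change the values it reads.

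For αERKO-veh against WT-veh the count of called genes among the 50 was 3 after the correction for transcript length, which was chosen after seeing the data and tested only the 47 with a length, and 4 to 7 under the other settings that kept all samples. For αERKO-DES against αERKO-veh it was 0 with a pseudocount of 0.1, no filter on low values, only the 2 groups in the model, quantile normalization or rescaling to equal totals, and 2 with a mean FPKM above 5, median-ratio scaling or the correction for length. For αERKO-DES against WT-veh it was 11 with only the 2 groups and 5 to 7 otherwise. With each sample left out in turn, the counts were 2 to 7, 0 to 4 and 3 to 7 in the order above. The cause was not tested. The called genes with the lowest adjusted p kept their direction under all 18 alternatives of each comparison. *Egf* (αERKO-veh) and *Doxl2* and *Hapln4* (αERKO-DES against WT-veh) were called under all 18, whereas *Gchfr* was not called under 10, *Gm16063* under 7, *Slc13a2* under 6, *Slc26a3* under 3 and *Doxl2* (αERKO-veh against WT-veh) under 1. The total called in each of the 4 lists, both directions together, stayed within 1.5 times the main count, at 11 to 13, 15 to 17, 53 to 55 and 22 to 24 with a sample left out, in the order of the report. The 16 genes named from the lists were called in the same direction under all 17 alternatives. By direction, the glycosyltransferases called higher went from 12 to 19 after rescaling to equal totals, and the 1 gene called higher in the secretory list and in the ER list was not called under some settings.

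Rescaling to equal totals shifted the median log2 change of all genes to 0.38 in WT-DES against WT-veh and to 0.11 in αERKO-veh against WT-veh, and the share of called genes that were higher from 54.7% to 79.2% and from 63.1% to 92.4%. In αERKO-DES against WT-veh that share was 38%, 52.3% after rescaling and 60.5% after quantile normalization, and in αERKO-DES against αERKO-veh 5.86%, with 3 of 5 called genes higher after quantile normalization.

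Replicate numbers did not pair the samples. The correlation of deviations was −0.215 to 0.277 over 24 same-numbered pairs, 3 were above 0.1, and 8 of 16 samples correlated more with their own number than with others. With the replicate number as a block, 5, 2 and 6 of the 50 genes were called in the 3 comparisons, against 5, 1 and 7 without it.

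Depth is unknown, so values under 1 FPKM, such as *Doxl2* and *Dgat2l6* in WT-DES, have no counting error here.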
